A study of Mus musculus with 12 samples.

Results

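The 8 clock output and accessory factors Nfil3, Bhlhe40, Bhlhe41, Dbp, Tef, Hlf, Rora and Ciart were followed in mouse white adipocytes treated with a β-adrenergic agonist, with and without lipase inhibitors. They were taken by symbol from the 20295 genes of the count table, all 8 were found, and all 8 passed the filter on low counts. The cells were mature white adipocytes (eWAs), floated out of collagenase-digested epididymal fat of lean male C57/BL6J mice and kept in a hydrogel for 2 days. The 12 libraries form 4 groups of 3: DMSO (vehicle), ISO (isoproterenol for 3 h, an agonist of β-adrenergic receptors), Lip (lipase inhibitors only) and Lip+ISO (inhibitors, then isoproterenol for 3 h). The inhibitors were Atglistatin and CAY10499, against the triacylglycerol lipases ATGL and HSL. The study's figure legend for these cells names another stimulus, SR-3420, and ISO was taken from its results text and the sample titles. The mice carried no engineered allele that the sources used here name, their age is not given there, and no step to synchronize the cells' clocks is described. The study describes 3 independent experiments, but nothing in the labels says which libraries shared an experiment or mice. The p-values therefore measure the spread between these libraries.

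The circadian clock is a loop in which CLOCK and ARNTL (BMAL1) bind E-boxes and activate their own repressors, the PER, CRY and REV-ERB proteins. The members sit beside this loop or below it. DBP, TEF and HLF are PAR bZIP activators that bind D-boxes, and NFIL3 (E4BP4) represses from the same sites. BHLHE40 (DEC1) and BHLHE41 (DEC2) compete for E-boxes, RORα activates Arntl from ROR response elements, and CIART (CHRONO) represses CLOCK and ARNTL. β-Adrenergic agonists raise cAMP in adipocytes, and CREB binds cAMP response elements (CRE) in many promoters.

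Promoter windows from RefSeq (GRCm38.p6, 250 bases before to 50 bases after a gene's start) were at hand for 7 of the 8 members, with 2 windows for Tef and none for Bhlhe40, whose promoter was not searched. The count table uses another build (mm9), so the windows were matched by symbol. They were searched on both strands for the CRE (TGACGTCA), the core of the CRE (TGACG, which lies inside the full site), the E-box (CACGTG), the D-box (TTATGTAA), its relaxed form (TTANNTAA) and the core of the ROR site (AGGTCA). Of the windows that held a match, 4 are printed, with the matches in capitals. They lie at chr13:52980990-52981289 (minus strand, Nfil3), chr11:90390868-90391167 (minus, Hlf), chr15:81802423-81802722 (plus, the first Tef window) and chr3:95882179-95882478 (minus, Ciart).
Nfil3: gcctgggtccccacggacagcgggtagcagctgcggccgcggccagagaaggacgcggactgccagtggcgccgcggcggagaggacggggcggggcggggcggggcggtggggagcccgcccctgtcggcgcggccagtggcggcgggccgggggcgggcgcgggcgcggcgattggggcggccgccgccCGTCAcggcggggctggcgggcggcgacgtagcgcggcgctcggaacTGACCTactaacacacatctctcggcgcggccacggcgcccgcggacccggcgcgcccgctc
Hlf: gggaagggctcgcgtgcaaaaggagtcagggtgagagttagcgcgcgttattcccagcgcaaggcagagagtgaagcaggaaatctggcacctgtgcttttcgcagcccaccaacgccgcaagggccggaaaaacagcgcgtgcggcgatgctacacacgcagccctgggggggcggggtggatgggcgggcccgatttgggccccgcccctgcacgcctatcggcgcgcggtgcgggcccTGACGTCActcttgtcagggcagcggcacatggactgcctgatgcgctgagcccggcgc
Tef: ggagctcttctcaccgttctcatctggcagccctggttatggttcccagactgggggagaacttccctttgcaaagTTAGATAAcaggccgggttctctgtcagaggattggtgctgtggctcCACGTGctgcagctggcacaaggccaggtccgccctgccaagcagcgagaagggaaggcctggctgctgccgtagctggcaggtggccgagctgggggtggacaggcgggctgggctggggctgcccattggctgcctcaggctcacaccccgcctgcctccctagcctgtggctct
Ciart: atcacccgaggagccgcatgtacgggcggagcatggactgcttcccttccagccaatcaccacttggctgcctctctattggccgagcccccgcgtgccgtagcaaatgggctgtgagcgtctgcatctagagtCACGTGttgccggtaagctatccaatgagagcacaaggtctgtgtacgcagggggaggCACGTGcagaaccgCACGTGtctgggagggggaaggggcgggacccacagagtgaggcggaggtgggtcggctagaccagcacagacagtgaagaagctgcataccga
The Nfil3 window held the CRE core, read on the other strand as CGTCA from 59 bases before the start, and the ROR core, read as TGACCT from 12 bases before it. Hlf was the 1 member with the full CRE, from 9 bases before its start. The Ciart window held 3 E-boxes, from 116, 58 and 44 bases before the start. The first Tef window held an E-box and a relaxed D-box, the other Tef window an E-box, and the Bhlhe41 window an E-box. The Dbp and Rora windows held none of the 6 motifs, which says nothing about elements elsewhere in these genes. Of all 32851 windows, 20.8% held the CRE core, 1.79% the full CRE, 7.15% the E-box, 0.938% the D-box, 6.0% the relaxed D-box and 16.3% the ROR core. These matches are letters in a window, not measured sites.

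Counts per library totaled 22632220 to 43707557. In a principal component analysis of the 500 most variable genes, Lip replicate 3 stood apart on the third component (7.39% of the variance), at -23.1 against -6.35 to 9.62 in the other 11 libraries. Without it 1 call among the members changed over all comparisons, that of Rora in Lip+ISO against Lip. All 8 listed cAMP-CREB target genes passed as higher in ISO than in DMSO, and all 8 in Lip+ISO than in Lip. This list was chosen with earlier results of these data known, so the count is a description of the agonist's action. Crem, a cAMP-induced CREB family gene, rose from 15.0 ± 0.223 CPM (SD, n = 3) in DMSO to 108 ± 10.1 in ISO, and from 15.8 ± 2.04 in Lip to 218 ± 13.3 in Lip+ISO. Nr4a1, an immediate early nuclear receptor gene, rose from 16.8 ± 2.25 to 361 ± 87.0 CPM, and from 31.2 ± 7.90 to 488 ± 189. CPM is the count scaled by library total and TMM factor.

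The cultures carried the adipocyte markers, whose summed level was 26660 to 41550 CPM over the 12 libraries. None of 10 rose in ISO against DMSO and 2 fell, as in Lip+ISO against Lip. Markers of other cell types were present at far lower sums, and some of them moved with the agonist. Of all tested genes, 12.3% passed as higher and 13.9% as lower in ISO against DMSO. The shares were 11.5% and 15.8% in Lip+ISO against Lip, and 4.36% and 4.59% in Lip+ISO against ISO. In ISO against DMSO, 6 of 7 tested macrophage markers, 1 of 8 endothelial, 3 of 8 fibroblast and progenitor, 1 of 6 mesothelial and 0 of 5 smooth muscle markers rose, and none fell. With inhibitors (Lip+ISO against Lip), 2 of 7 macrophage, 1 of 8 endothelial and 1 of 6 mesothelial markers rose, 1 of 5 smooth muscle markers fell, and no fibroblast and progenitor marker of 8 passed. Between Lip+ISO and ISO, 3 fibroblast and progenitor markers and 1 endothelial marker fell. Summed macrophage markers were 48.1 to 62.3 CPM in DMSO, 104 to 156 in ISO, 51.1 to 58.4 in Lip and 65.6 to 117 in Lip+ISO. Summed fibroblast and progenitor markers were 339 to 604, 662 to 902, 450 to 478 and 399 to 578 CPM in the same order. Endothelial sums were 104 to 201, 247 to 453, 52.3 to 177 and 82.8 to 247, mesothelial sums 24.8 to 56.6, 65.4 to 75.6, 14.4 to 59.8 and 41.9 to 51.8, and smooth muscle sums 182 to 290, 148 to 255, 247 to 337 and 112 to 189 CPM. No marker was at 0 counts over a whole group. The part of these cells in the members' results was not tested, and in bulk RNA a changed number of cells and a changed amount of RNA per cell cannot be told apart.

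Under isoproterenol Nfil3 and Bhlhe40 rose and Dbp and Tef fell, both with the lipases active and with them inhibited. In ISO against DMSO, 2 of 8 members passed as higher, against 12.3% of the 13543 tested genes, and 2 as lower, against 13.9%. Likewise in Lip+ISO against Lip, the same 2 passed as higher (11.5% of all genes) and the same 2 as lower (15.8%). These comparisons share no library, but both came from the same fit of all 12 libraries, with a shared spread. Libraries of equal replicate number also deviated together from their group means. The correlation over genes was r = 0.197 to 0.369 between Lip and DMSO and 0.037 to 0.311 between Lip+ISO and ISO. The second comparison is therefore not shown to be an independent repeat of the first. A gene passed at an adjusted p at or under 0.05 in edgeR's quasi-likelihood test (two-sided, Benjamini-Hochberg over all tested genes). The median log2 fold change of the 8 members was 0.06 in ISO against DMSO and -0.21 in Lip+ISO against Lip, beside medians under 0.01 in size over all genes. Scaling by library totals alone moved the all-gene split: the share of passing genes that were higher went from 47.1% to 37.0% in ISO against DMSO and from 42.2% to 26.5% in Lip+ISO against Lip, while the same 4 members kept their direction and passed.

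**Figure D1:**
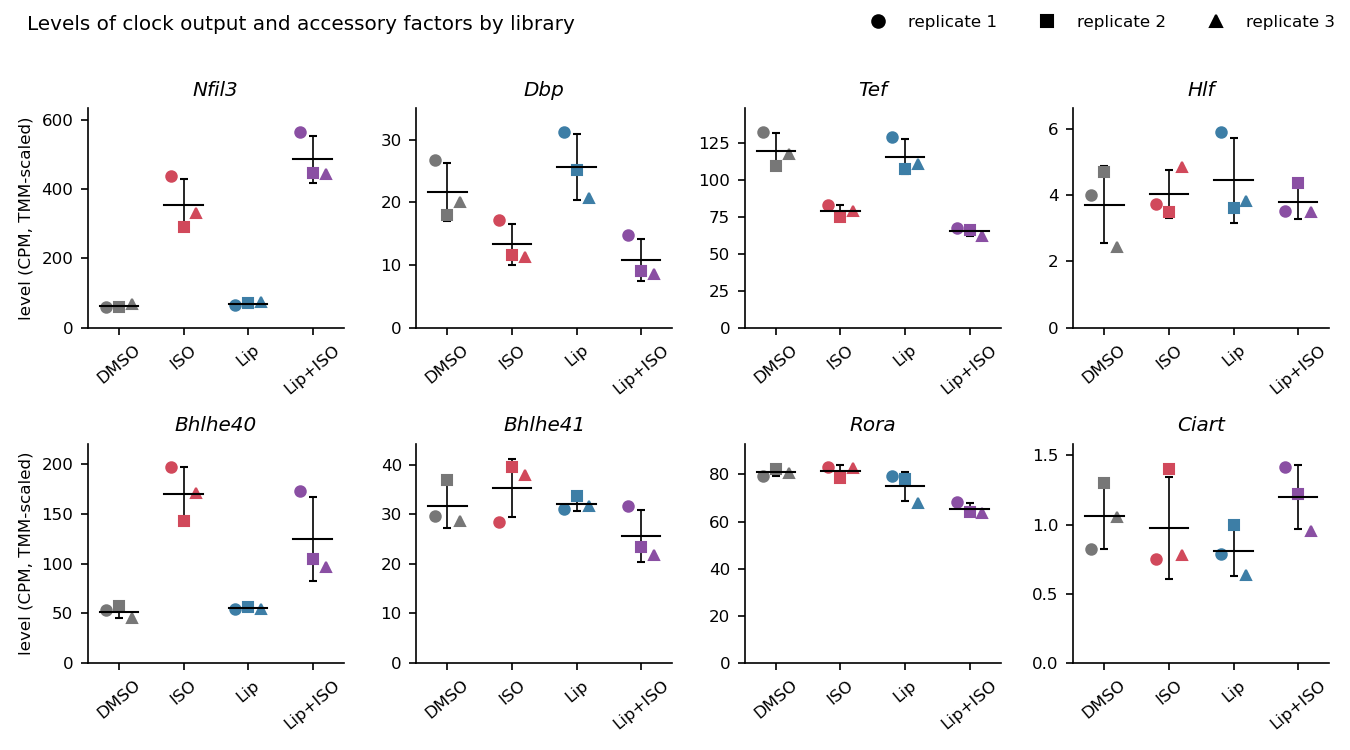
Level of each member in each of the 12 libraries (CPM after TMM scaling, linear axes from 0), by group on the horizontal axis. Bars are the mean and SD of 3 libraries, and marker shapes give the replicate number. Nfil3 and Bhlhe40 are higher and Dbp and Tef lower in every ISO and Lip+ISO library than in every DMSO and Lip library, while Hlf, Bhlhe41 and Ciart overlap between groups.

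Nfil3 (NM_017373, mm9 chr13:53062578-53076408, minus strand), the D-box repressor, had the largest change of the 8 members in both responses to the agonist. Its level was 59.3, 60.4 and 67.0 CPM in the DMSO libraries and 438, 292 and 331 CPM in the ISO libraries. It was 64.0, 70.4 and 73.8 CPM in Lip and 566, 448 and 446 CPM in Lip+ISO. All 6 libraries with the agonist stood above all 6 without it. The log2 fold change was 2.51 ± 0.15 (SE) in ISO against DMSO (edgeR adjusted p = 2.2e-07) and 2.81 ± 0.15 in Lip+ISO against Lip (adjusted p = 3.5e-08), or 5.68-fold and 7.01-fold. Between libraries of the same replicate number the log2 difference was 2.27 to 2.88 without and 2.59 to 3.14 with the inhibitors. Without Lip replicate 3 the second value was 2.86 (adjusted p = 6.0e-07).

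Dbp and Tef, PAR bZIP activators that NFIL3 opposes at D-boxes, moved the other way. Dbp (NM_016974, mm9 chr7:52960617-52965573, plus strand) was at 26.9, 18.0 and 20.1 CPM in DMSO and 17.1, 11.7 and 11.2 CPM in ISO. It was at 31.3, 25.1 and 20.7 CPM in Lip and 14.7, 9.08 and 8.58 CPM in Lip+ISO. The groups with and without the agonist did not overlap, although the lowest DMSO library lay close to the highest ISO library. Dbp had a log2 fold change of -0.71 ± 0.24 in ISO against DMSO (edgeR adjusted p = 0.047) and -1.25 ± 0.24 in Lip+ISO against Lip (adjusted p = 0.0019). The first of these passed only narrowly. Its adjusted p was 0.19 without DMSO replicate 1, 0.082 without DMSO replicate 3, 0.16 without ISO replicate 2 and 0.15 without ISO replicate 3. It was 0.058 without Lip replicate 2 and 0.052 without Lip+ISO replicate 2, libraries that enter this comparison only through the shared spread. It was 0.16 without replicate 2 of every group and 0.19 without replicate 3 of every group. The direction was kept in all 15 fits that left libraries out (-0.93 to -0.52). Within replicate numbers Dbp was lower in ISO by 0.62 to 0.84 and lower in Lip+ISO than in Lip by 1.08 to 1.46 on the log2 scale. The shared sign follows from groups that did not overlap. Without Lip replicate 3 the fall against Lip was -1.39 (adjusted p = 0.0021). The span of Dbp overlaps Sphk2 on the other strand, and since nothing states that counting used strand, its counts are uncertain.

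Tef (NM_153484, mm9 chr15:81633103-81657293, plus strand) was at 132, 109 and 117 CPM in DMSO and 82.9, 74.8 and 79.1 CPM in ISO. It was at 129, 107 and 110 CPM in Lip and 67.5, 66.2 and 61.7 CPM in Lip+ISO. No library with the agonist reached the lowest library without it. Tef had a log2 fold change of -0.60 ± 0.09 in ISO against DMSO (edgeR adjusted p = 5.1e-04) and -0.82 ± 0.09 in Lip+ISO against Lip (adjusted p = 2.6e-05), and -0.86 (adjusted p = 1.1e-04) without Lip replicate 3.

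Hlf (NM_172563, mm9 chr11:90197849-90252231, minus strand), the third PAR bZIP gene and the one with the full CRE in its window, passed in no comparison. It was scarce, with 62 to 172 counts per library. Its level was 4.01, 4.70 and 2.43 CPM in DMSO, 3.74, 3.48 and 4.84 in ISO, 5.91, 3.61 and 3.82 in Lip, and 3.52, 4.37 and 3.50 in Lip+ISO. All 4 groups overlapped. The log2 fold change was 0.11 ± 0.27 in ISO against DMSO (edgeR adjusted p = 0.79) and -0.22 ± 0.27 in Lip+ISO against Lip (adjusted p = 0.61), and the sign of each changed when single libraries were left out. The SE of Hlf was 0.27 where that of Tef was 0.09.

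The mRNA of the D-box repressor was set against that of the D-box activators as a ratio inside each library. It is given per kilobase of counted length so that genes can be compared, and the proteins were not measured. The ratio of Nfil3 to the sum of Dbp, Tef and Hlf was 0.531, 0.708 and 0.725 in DMSO and 0.540, 0.730 and 0.815 in Lip. It was 6.17, 5.09 and 5.58 in ISO and 9.54, 9.11 and 9.72 in Lip+ISO. The mRNAs of the activators together exceeded that of Nfil3 in all 6 libraries without the agonist, and that of Nfil3 exceeded theirs in all 6 with it. On the log2 scale the ratio was -0.63 ± 0.25 (SD, n = 3) in DMSO, 2.48 ± 0.14 in ISO, -0.55 ± 0.31 in Lip and 3.24 ± 0.05 in Lip+ISO. The Lip+ISO libraries lay above the ISO libraries without overlap, which is a description with no test. Tef made up 52.1% to 64.6% of the summed activators in the 12 libraries.

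**Figure D2:**
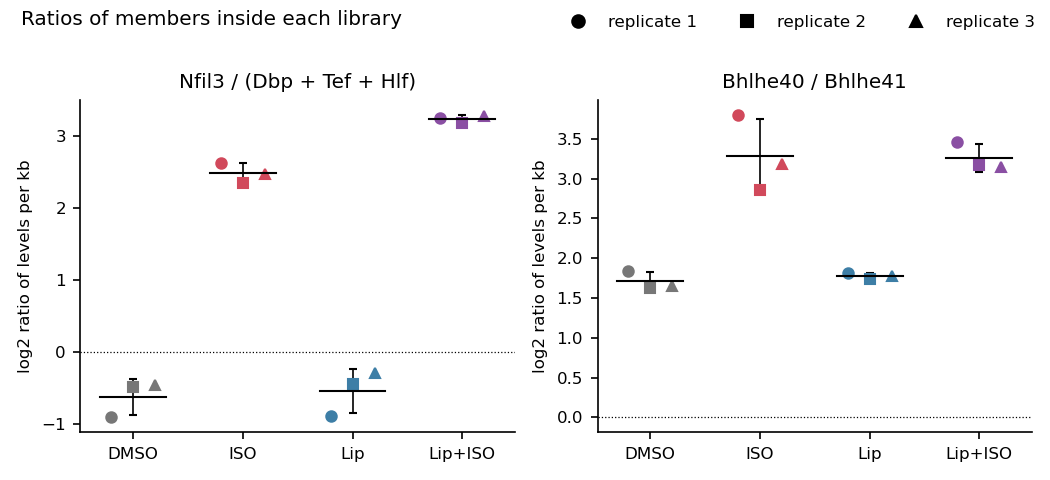
Log2 ratio of the level per kilobase of Nfil3 to the sum of Dbp, Tef and Hlf (left) and of Bhlhe40 to Bhlhe41 (right) in each library, by group. Bars are the mean and SD of 3 libraries and marker shapes give the replicate number. The first ratio lies below 0 in DMSO and Lip, at 2.35 to 2.63 in ISO and at 3.19 to 3.28 in Lip+ISO, and the second overlaps between ISO and Lip+ISO.

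The paralogous E-box repressors responded unequally. Bhlhe40 (NM_011498, mm9 chr6:108610623-108616919, plus strand) was at 53.0, 57.1 and 44.9 CPM in DMSO and 197, 143 and 172 CPM in ISO. It was at 54.4, 56.2 and 54.2 CPM in Lip and 174, 105 and 96.3 CPM in Lip+ISO. Every library with the agonist was above every library without it, and Lip+ISO replicate 1 stood above the other Lip+ISO libraries. Bhlhe40 had a log2 fold change of 1.72 ± 0.19 in ISO against DMSO (edgeR adjusted p = 4.1e-05) and 1.19 ± 0.19 in Lip+ISO against Lip (adjusted p = 4.6e-04), or 1.18 (adjusted p = 0.0027) without Lip replicate 3. Bhlhe41 (NM_024469, mm9 chr6:145806763-145813940, minus strand) was at 29.6, 36.9 and 28.5 CPM in DMSO, 28.5, 39.5 and 37.9 in ISO, 31.0, 33.7 and 31.6 in Lip, and 31.7, 23.3 and 21.8 in Lip+ISO. Its groups overlapped in every comparison. The log2 fold change of Bhlhe41 was 0.16 ± 0.16 in ISO against DMSO (adjusted p = 0.48) and -0.33 ± 0.16 in Lip+ISO against Lip (adjusted p = 0.15). The second value was -0.51 and passed without Lip+ISO replicate 1 (adjusted p = 0.024), and was -0.52 without replicate 1 of every group (adjusted p = 0.027). Per kilobase, Bhlhe40 exceeded Bhlhe41 by 3.10 to 3.59 times in DMSO, 3.34 to 3.51 times in Lip, 7.25 to 13.9 times in ISO and 8.85 to 11.0 times in Lip+ISO.

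Rora (NM_013646, mm9 chr9:68501593-69236053, plus strand) had the narrowest range of the 8 members as a ratio of its highest to its lowest library (0.39 on the log2 scale), from 63.6 to 83.1 CPM. It was at 79.5, 82.2 and 80.8 CPM in DMSO, 83.1, 78.6 and 82.9 in ISO, 79.2, 77.9 and 67.9 in Lip, and 68.3, 64.2 and 63.6 in Lip+ISO. The Lip+ISO libraries lay below all ISO and all DMSO libraries, and Lip replicate 3 reached down to their range. The log2 fold change was 0.01 ± 0.07 in ISO against DMSO (edgeR adjusted p = 0.92), with a sign that changed under other settings. Against Lip, Lip+ISO was at -0.20 ± 0.07 (adjusted p = 0.062). That value passed with a replicate block (-0.20, adjusted p = 0.035) and without Lip replicate 3 (-0.27, adjusted p = 0.022). It also passed with libraries scaled by totals alone (-0.31, adjusted p = 0.011), where the median of all genes was itself at -0.12.

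Ciart (NM_001033302, mm9 chr3:95682428-95686151, minus strand), with its 3 E-boxes, was near the lower limit of these libraries at 17 to 62 counts each. Its level was 0.821, 1.30 and 1.06 CPM in DMSO, 0.749, 1.40 and 0.778 in ISO, 0.790, 0.998 and 0.637 in Lip, and 1.41, 1.22 and 0.953 in Lip+ISO. All pairs of groups compared overlapped. Ciart had a log2 fold change of -0.08 ± 0.36 in ISO against DMSO (edgeR adjusted p = 0.89) and 0.57 ± 0.36 in Lip+ISO against Lip (adjusted p = 0.29). With these errors only large changes of Ciart would have been detectable.

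Ordered by level per kilobase, the DMSO libraries had Nfil3 at 31.2 ± 2.07 CPM per kb (SD, n = 3), Tef at 28.8 ± 2.84, Dbp at 19.0 ± 4.07, Bhlhe40 at 17.2 ± 2.07, Rora at 7.43 ± 0.125, Bhlhe41 at 5.28 ± 0.759, Ciart at 0.760 ± 0.172 and Hlf at 0.655 ± 0.206. Neighbours overlapped between Nfil3 and Tef, Dbp and Bhlhe40, and Ciart and Hlf. In ISO the order began with Nfil3 (178 ± 38.1 CPM per kb), Bhlhe40 (57.0 ± 9.08) and Tef (19.0 ± 0.985), none of which overlapped. In Lip+ISO the same 3 led at 244 ± 34.6, 41.7 ± 14.1 and 15.7 ± 0.730 CPM per kb. In Lip the order of the first 6 was that of DMSO, with Nfil3 at 34.8 ± 2.50 CPM per kb. Rora and Bhlhe41 followed the first 4 members in every group, and Hlf and Ciart came last and overlapped each other.

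With the inhibitors alone no member passed the test. In Lip against DMSO, 0 of 8 members passed in edgeR or in DESeq2, and 0 had an unadjusted p under 0.05 in edgeR. Of all genes 0.00738% passed as higher and 0.0443% as lower. The members' log2 fold changes ran from -0.39 (Ciart, SE 0.36) to 0.26 (Hlf, SE 0.27), with a median of 0.05 beside one under 0.01 over all genes. For the members with small errors the value was -0.11 ± 0.07 for Rora, -0.05 ± 0.09 for Tef and 0.16 ± 0.14 for Nfil3. Without Lip replicate 3 they were -0.05, -0.03 and 0.10. Rora was lower in every Lip library than in every DMSO library, at 79.2 CPM in the highest against 79.5 CPM in the lowest.

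Under isoproterenol 1 member differed with the inhibitors in the fit without a replicate block, and 4 did with the block. Over all 13543 tested genes the calls also rose, from 1211 without the block to 2607 with it. When Lip+ISO was set against ISO, 1 of 8 members passed as lower (4.59% of all genes) and 0 as higher (4.36%). At the looser threshold of an unadjusted p under 0.05 in edgeR 5 of 8 were counted. The share of all genes at that threshold was not computed, so this count is not set against those shares. The member that passed was Rora, at -0.32 ± 0.07 on the log2 scale (edgeR adjusted p = 0.016), with all Lip+ISO libraries below all ISO libraries. This call was not stable to the libraries used. Leaving out ISO replicate 3 or Lip+ISO replicate 2 gave an adjusted p of 0.056 each, and leaving out Lip+ISO replicate 3 gave 0.068. It was 0.070, 0.18 and 0.11 without replicate 1, 2 or 3 of every group, and 0.071 in a fit of only these 2 groups, while the value stayed between -0.35 and -0.29 in the 15 fits that left libraries out. The summed markers of fibroblasts and progenitors, of mesothelial cells and of endothelial cells were also lower in every Lip+ISO library than in every ISO library, the endothelial sums by a narrow margin (highest at 246.5 against lowest at 247.3 CPM), while macrophage and smooth muscle sums overlapped.

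The other members did not pass in Lip+ISO against ISO without the block. Nfil3 was at 0.46 ± 0.14 (edgeR adjusted p = 0.061) and Tef at -0.28 ± 0.09 (adjusted p = 0.090), and for both the groups did not overlap. Nfil3 passed in DESeq2 (0.48, adjusted p = 0.015). With the replicate block, 3 of them passed in edgeR, Nfil3 at 0.47 (adjusted p = 0.021), Bhlhe40 at -0.47 (adjusted p = 0.049) and Tef at -0.28 (adjusted p = 0.012). In that fit 1149 of all 13543 tested genes passed as higher and 1458 as lower. Bhlhe40 had the same sign in 3 of 3 replicate numbers, as did Dbp, which did not pass. For Nfil3 and Tef a shared sign follows from groups that did not overlap. Between these groups 2 of 3 pairs of equal number deviated together. Without the block Bhlhe40 was at -0.45 ± 0.19 (adjusted p = 0.17), Bhlhe41 at -0.47 ± 0.16 (adjusted p = 0.091) and Dbp at -0.30 ± 0.24 (adjusted p = 0.50). Hlf was at -0.08 ± 0.27 (adjusted p = 0.89) and Ciart at 0.27 ± 0.36 (adjusted p = 0.70). Replicate 1 decided several of these. Nfil3 was at 0.64 (adjusted p = 0.0083) without ISO replicate 1 and at 0.53 (adjusted p = 0.014) without replicate 1 of every group. Bhlhe40 was at -0.76 (adjusted p = 0.0040) without Lip+ISO replicate 1 and at -0.63 (adjusted p = 0.029) without replicate 1 of every group. Bhlhe41 was at -0.60 (adjusted p = 0.037) without ISO replicate 1, at -0.65 (adjusted p = 0.018) without Lip+ISO replicate 1 and at -0.77 (adjusted p = 0.014) without replicate 1 of every group. The members' median was -0.29 beside -0.01 over all genes.

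**Figure D3:**
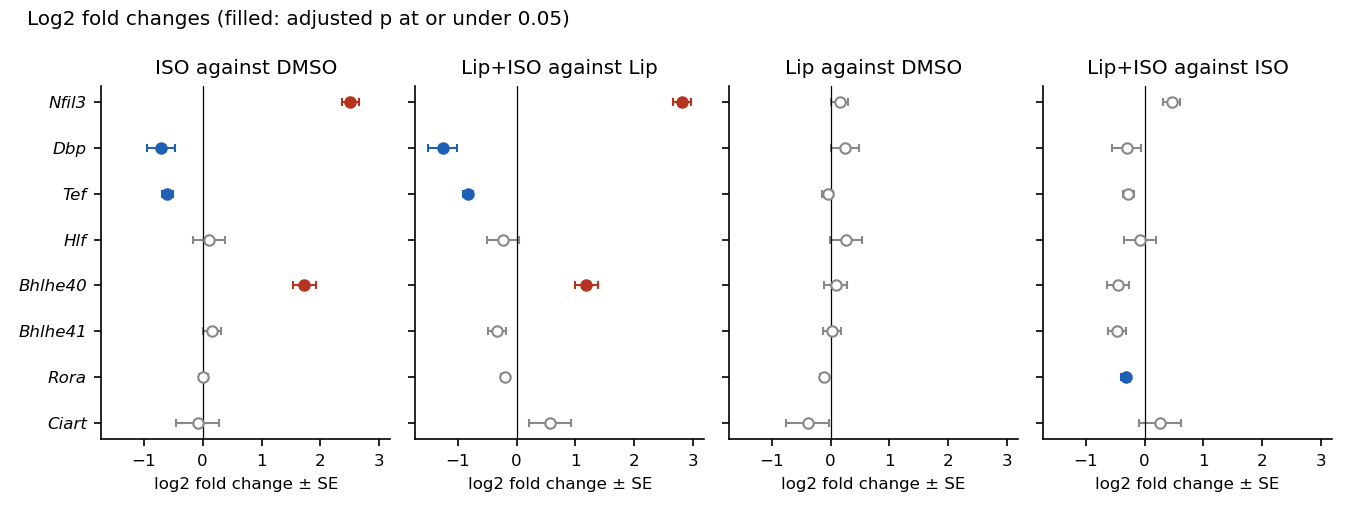
Log2 fold change of each member with its standard error in the 4 comparisons of 2 groups. Filled points passed at an adjusted p at or under 0.05 (red higher, blue lower) and open points did not. The first panels share the pattern of Nfil3 and Bhlhe40 to the right and Dbp and Tef to the left, the panel of Lip against DMSO has no filled point, and Rora is the filled point in Lip+ISO against ISO.

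Whether the response to isoproterenol differed with the inhibitors was tested directly as the interaction, the log2 response with inhibitors minus that without. In edgeR 0 of 8 members passed, and 0 of 8 passed in DESeq2. At an unadjusted p under 0.05 in edgeR there was 1, Bhlhe41 (-0.49 ± 0.22, adjusted p = 0.36), and the share of all genes at that threshold was not computed. Of all genes 0.901% passed as higher and 0.724% as lower. The interaction was 0.30 ± 0.20 for Nfil3 (adjusted p = 0.56), -0.54 ± 0.27 for Bhlhe40 (adjusted p = 0.41), -0.55 ± 0.34 for Dbp (adjusted p = 0.53) and -0.23 ± 0.13 for Tef (adjusted p = 0.49). For the others it was -0.21 ± 0.10 for Rora (adjusted p = 0.40), -0.34 ± 0.39 for Hlf (adjusted p = 0.76) and 0.65 ± 0.51 for Ciart (adjusted p = 0.64). For Bhlhe40 it was -0.85 and passed without Lip+ISO replicate 1 (adjusted p = 0.028). With a replicate block 1 member passed in edgeR, Dbp at -0.56 (adjusted p = 0.041). In that fit 898 of all 13543 tested genes passed, against 220 without the block.

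Dbp and Tef were highest in replicate 1 of all 4 groups, as were 6.31% of all tested genes. No other member had the same replicate highest in all groups. Over all genes 19.3% had any 1 replicate number highest in all 4 groups, a share near that of the members (2 of 8, 25.0%). Of the 13 core clock genes 1 did, Per1, with replicate 3.

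The core clock loop gives the setting of these changes. In ISO against DMSO, 5 of its 13 genes passed as higher and 2 as lower, beside 12.3% and 13.9% of all tested genes. In Lip+ISO against Lip 4 were higher and 4 lower, beside 11.5% and 15.8% of all tested genes. Arntl, the partner of CLOCK, rose from 23.8 ± 2.59 CPM (SD, n = 3) in DMSO to 102 ± 14.6 in ISO and from 24.9 ± 2.77 in Lip to 117 ± 15.9 in Lip+ISO. The repressor genes Per2 and Per3 fell, Per3 from 22.1 ± 3.21 to 6.82 ± 0.870 CPM and from 24.6 ± 1.66 to 6.85 ± 0.517. Per2 had log2 fold changes of -1.39 ± 0.22 and -2.32 ± 0.23 (edgeR adjusted p = 6.2e-04 and 9.1e-06). Per1, a cAMP-responsive period gene, rose by 0.92 ± 0.13 and 0.67 ± 0.13 (adjusted p = 2.3e-04 and 0.0016). Rorb, a paralog of Rora, rose by 3.09 ± 0.35 and 1.64 ± 0.34 (adjusted p = 4.3e-05 and 0.0028), from a level of 0.288 ± 0.0909 CPM in DMSO. The Rorb call with the inhibitors was lost without replicate 1 of every group (1.39, adjusted p = 0.062).

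The test of the interaction passed for 1 of the 13 core genes as higher and for 1 as lower. Nr1d1, which encodes the repressor REV-ERBα, was at 151 ± 1.53 CPM (SD, n = 3) in DMSO and 216 ± 11.2 in ISO, but at 135 ± 5.32 in Lip and 74.2 ± 6.01 in Lip+ISO. It rose with the lipases active (log2 fold change 0.52 ± 0.07, edgeR adjusted p = 2.9e-04) and fell with them inhibited (-0.87 ± 0.08, adjusted p = 2.8e-06). Its interaction was -1.39 ± 0.11 (adjusted p = 5.0e-05). Cry2, another clock repressor, was at 64.7 ± 6.60 CPM in DMSO, 95.8 ± 11.7 in ISO, 56.7 ± 1.80 in Lip and 210 ± 45.9 in Lip+ISO, with an interaction of 1.32 ± 0.20 (adjusted p = 0.0049). That of Cry2 did not pass without replicate 2 of every group (1.41, adjusted p = 0.054) or without replicate 3 (1.29, adjusted p = 0.16). In Lip+ISO against ISO, where 4.36% of all tested genes passed as higher and 4.59% as lower, 3 core genes passed. They were Cry2 (1.13 ± 0.14, adjusted p = 3.1e-04), Nr1d1 (-1.54 ± 0.08, adjusted p = 2.7e-07) and Rorb (-1.07 ± 0.31, adjusted p = 0.048). The Rorb call was lost in all 15 fits that left libraries out (adjusted p = 0.057 to 0.27). No core gene passed in Lip against DMSO in edgeR or DESeq2, and 0 of 13 had an unadjusted p under 0.05.

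**Figure D4:**
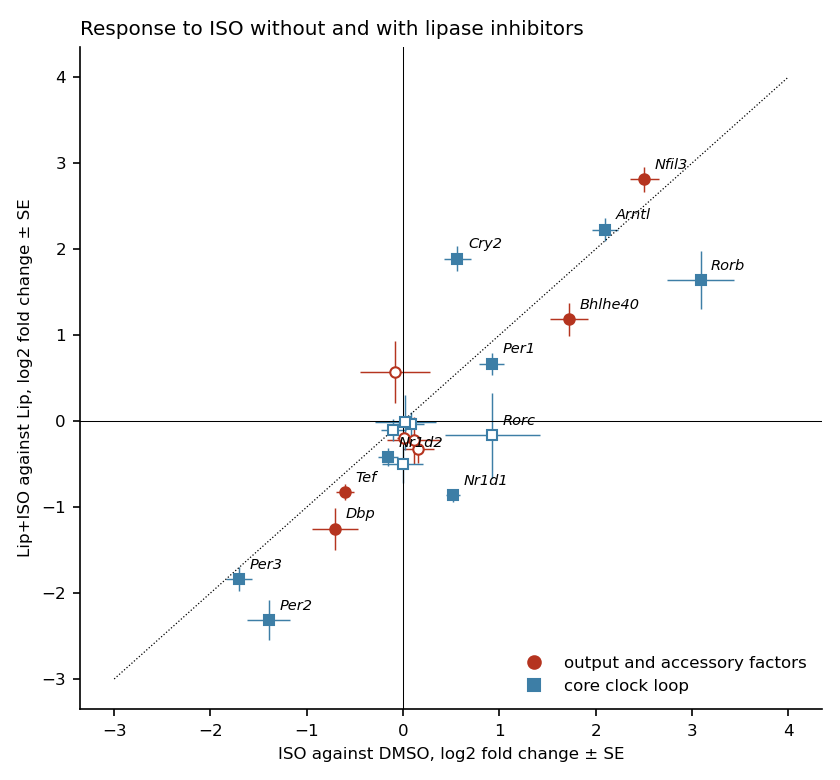
Log2 fold change of ISO against DMSO (horizontal) and of Lip+ISO against Lip (vertical), each ± SE, for the 8 members (circles) and the 13 core clock loop genes (squares). Filled symbols passed in at least 1 of these comparisons, and the dotted line marks equal responses. The 4 members that passed are Nfil3 (2.51 and 2.81), Bhlhe40 (1.72 and 1.19), Dbp (-0.71 and -1.25) and Tef (-0.60 and -0.82). With all 12 libraries and no replicate block, the edgeR interaction test passed for none of them. Of the core genes, it passed for Cry2 (0.56 and 1.89) and Nr1d1 (0.52 and -0.87). Rorb (3.09 and 1.64) and Per2 (-1.39 and -2.32) also lie away from the line, but their interactions did not pass.

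Kinases and turnover factors of the clock were also measured. Of 16 such genes, 3 passed as higher and 4 as lower in ISO against DMSO, beside 12.3% and 13.9% of all tested genes. In Lip+ISO against Lip 5 were higher and 4 lower, beside 11.5% and 15.8% of all tested genes. In Lip against DMSO 0 passed (0 in DESeq2, and 0 at an unadjusted p under 0.05 in edgeR). In Lip+ISO against ISO 4 passed as higher, beside 4.36% of all tested genes. Among those that passed, the largest changes in ISO against DMSO were those of Usp2, a deubiquitinase gene of the clock, at 2.51 ± 0.16 (edgeR adjusted p = 3.3e-07), of the kinase gene Gsk3b at -0.84 ± 0.12 (adjusted p = 2.1e-04) and of the kinase gene Csnk1d at 0.51 ± 0.09 (adjusted p = 0.0012). Usp2 went from 7.73 ± 0.457 CPM (SD, n = 3) in DMSO to 44.1 ± 10.9 in ISO and from 9.72 ± 1.18 in Lip to 114 ± 7.27 in Lip+ISO. The largest among the passing genes in Lip+ISO against ISO were Usp2 at 1.37 ± 0.15 (adjusted p = 8.5e-05), Usp9x at 0.48 ± 0.09 (adjusted p = 0.0069) and Csnk1d at 0.36 ± 0.09 (adjusted p = 0.026). The Csnk1d value did not pass without ISO replicate 2 (adjusted p = 0.10), ISO replicate 3 (0.10) or Lip+ISO replicate 3 (0.089), nor without replicate 1, 2 or 3 of every group (0.051, 0.13 and 0.30). That of Usp9x did not pass without replicate 2 or 3 of every group (0.078 and 0.14).

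Of 14 listed genes with rhythmic output in other tissues, 5 passed as higher and 0 as lower in ISO against DMSO. The shares of all tested genes were 12.3% and 13.9%. In Lip+ISO against Lip 4 were higher and 3 lower, beside 11.5% and 15.8% of all tested genes. In ISO against DMSO the largest changes among the genes that passed were Lonrf3 at 1.74 ± 0.18 (edgeR adjusted p = 2.2e-05), Pdk4, a kinase gene that restrains glucose oxidation, at 1.06 ± 0.21 (adjusted p = 0.0024) and the cell cycle inhibitor gene Cdkn1a at 0.56 ± 0.13 (adjusted p = 0.0069, or 0.073 without replicate 2 of every group). Both genes that passed in Lip+ISO against ISO were lower, as were 4.59% of all tested genes. Pdk4 fell from 880 ± 78.4 CPM (SD, n = 3) to 53.7 ± 16.4, at -4.04 ± 0.23 (adjusted p = 8.0e-07), and Lonrf3 was at -1.05 ± 0.18 (adjusted p = 0.0028, or 0.073 without replicate 2 of every group). Pdk4 was also the 1 gene of this list that passed in Lip against DMSO (-1.66 ± 0.21, adjusted p = 0.014). That call did not pass without DMSO replicate 2 (adjusted p = 0.057), DMSO replicate 3 (0.086), Lip replicate 1 (0.084), Lip replicate 2 (0.090), Lip replicate 3 (0.065), or replicate 1 or 2 of every group (0.16 and 0.63).

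The genes whose log2 CPM was most like a member's over the 12 libraries were found among 9837 or 9838 genes with a mean of at least 5 CPM, as a description that carries no test, since the libraries of a group share a treatment. Nfil3 was most like Nr4a2 (Pearson r = 0.996), an immediate early nuclear receptor gene, Tob1 (r = 0.994) and Eprs (r = 0.994). Bhlhe40 was most like Phlda1 (0.981), Junb (0.980), an AP-1 subunit gene, and Chac1 (0.978). Dbp was most like Zfp423 (0.974), Ypel5 (0.972) and Cyld (0.965), and Tef most like 4931406P16Rik (0.991), Phldb1 (0.987) and Rhobtb1 (0.987). Rora was most like Adap2 (0.953), Boc (0.945) and Tigd2 (0.940), and Bhlhe41 most like Utp20 (0.907), Zbtb2 (0.877) and Pkd2 (0.866). The highest values were lower for the scarce members. Hlf was most like Gstt4 (0.750), Naa10 (0.746) and Wisp1 (0.734), and Ciart most like Api5 (0.812), Acsl5 (0.791) and Lgals9 (0.784). Among the members themselves, r was 0.918 for Dbp and Tef, 0.912 for Nfil3 and Bhlhe40, -0.949 for Nfil3 and Tef, -0.819 for Nfil3 and Dbp, and 0.0640 for Bhlhe40 and Bhlhe41.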

How the data were processed

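The deposited table holds whole read counts per gene for 12 libraries, with no normalization, and the counted length of each gene. Per the study's methods and the submitters' processing notes, the authors aligned reads to mm9 with STAR 2.4.2a and counted 1 read per position and length with HOMER and iRNA-seq. That cap can compress high counts, and strand use is not stated. Groups and replicate numbers came from the sample titles.

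Genes were kept by filterByExpr (13543), scaled by TMM (factors 0.924 to 1.07) and fitted with edgeR 4.0.16 in R 4.3.3 (quasi-likelihood F-test, 1 mean per group, all 12 libraries). Adjustment was by Benjamini-Hochberg over those genes, and a gene passed at 0.05 or under. DESeq2 1.42.0 served as an alternative. Log2 CPM used a prior count of 2. The fit was tested on simulated data. The biological coefficient of variation was 0.163.

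The members and gene lists (core clock loop, clock kinases and turnover, rhythmic output, cAMP-CREB targets, cell type markers) were chosen with earlier results of these data known. Named from the lists were all core genes, Crem and Nr4a1, the 3 passing genes of the kinase and output lists with the largest changes in ISO against DMSO and in Lip+ISO against ISO, and the 3 genes most like each member.

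Libraries with the same replicate number deviated together from their group means in ISO and DMSO (r = 0.140 to 0.331 over genes, 3 of 3 pairs above 0.1), Lip+ISO and Lip (0.192 to 0.298) and Lip and DMSO (0.197 to 0.369), a pairing read from the data and not stated in the labels. In Lip+ISO and ISO, 2 of 3 pairs were above 0.1. Alternatives were a replicate block, other scalings, filters and tests, and libraries left out.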

Additional observations from a re-analysis of the deposited data

Results flagged for a closer look

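No member passed the interaction test, which compares the response to isoproterenol with and without inhibitors. Among the list genes named beside them, 5 passed, each with an adjusted p at or under 0.05 in edgeR's quasi-likelihood test. The log2 response with inhibitors minus that without was -1.39 for Nr1d1 and 1.32 for Cry2 of the core clock loop. It was 1.04 for Usp2 of the clock turnover genes, where 10 of the 15 fits that left libraries out did not pass, and -2.38 for Pdk4 of the rhythmic output genes, where 1 did not. For Crem, the cAMP target given as a check of the agonist, it was 0.93, and 2 of the 15 fits did not pass. For Cry2 2 of the 15 did not pass, and for Nr1d1 all passed. Groups of 3 libraries were too small for the search for single outlying libraries.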

How the results depend on the processing

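The 4 members that passed in ISO against DMSO and the 4 in Lip+ISO against Lip also passed under DESeq2, library totals, no filter on low counts, only the groups compared and the replicate block. Beyond them Rora passed in Lip+ISO against Lip under library totals and under the block. With a log2 fold change of at least 1 required, 2 members passed in ISO against DMSO. Leaving libraries out gave counts of 3 to 4, of 4 to 5 and, in Lip against DMSO, of 0. For Lip+ISO against ISO, the main count of 1 became 2 under library totals (with Tef, adjusted p = 0.039) and under DESeq2 (with Nfil3, adjusted p = 0.015), 0 in the fit of only these groups, with a log2 fold change of at least 1 or at an adjusted p of 0.01, and 0 to 3 with libraries left out. Between Lip+ISO and ISO 2 of 3 pairs of equal number were above 0.1, and over all groups 17 of 18. With a replicate block, 4 members passed in Lip+ISO against ISO (Nfil3, Bhlhe40, Tef and Rora) and 1 in the interaction (Dbp, -0.56, adjusted p = 0.041), where libraries left out gave 0 to 1. The cause was not tested.

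Of 600 values with libraries left out, 26 changed sign, all of them log2 fold changes that had not passed. Their ranges were, in ISO against DMSO, -0.27 to 0.41 for Hlf, -0.014 to 0.046 for Rora and -0.47 to 0.074 for Ciart. For Lip+ISO against Lip it was -0.47 to 0.10 for Hlf. In Lip against DMSO they were -0.0052 to 0.16 for Bhlhe40, -0.050 to 0.14 for Bhlhe41, -0.15 to 0.027 for Tef and -0.011 to 0.58 for Hlf. For Lip+ISO against ISO they were -0.29 to 0.13 for Hlf and -0.015 to 0.64 for Ciart, and in the interaction -0.88 to 0.0015 for Hlf. Rora in ISO against DMSO was -0.029 under library totals and -0.0055 with no filter.

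Counts over all genes also moved. Of all tested genes 1211 passed in Lip+ISO against ISO, 2607 with the block, 744 in the fit of only these groups and 379 to 1206 with libraries left out. In the interaction 220 passed, 898 with the block, 579 under DESeq2 and 15 to 328 with libraries left out. In Lip against DMSO 7 passed, 27 with the block, 57 under DESeq2, 14 with no filter, 11 in the fit of only these groups and 0 to 15 with libraries left out. In ISO against DMSO 3548 passed and 1884 to 3908 with libraries left out, and in Lip+ISO against Lip 3702 and 2092 to 3692. The depth limits Hlf and Ciart most, with 62 to 172 and 17 to 62 counts per library. The same alternatives for list genes were added after seeing the data.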
